A study of Mus musculus with 12 samples.

Results

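The genes described here are B cell transcripts found in RNA-seq libraries of mouse regulatory T cells (Treg), the Foxp3-expressing T cells that restrain immune responses. A list of 31 B cell lineage and B cell receptor signalling genes was used, chosen because their genotype difference ran one way in vivo and the other way in culture. Of these, 29 were measured in both expression tables, which hold 16232 genes in vivo and 24421 in culture; Ighm and Ighd were not analysed here. Because the genotype differences chose the list, they are given below as a description with no test. Stimulation played no part in the choice, so its effect on the members was tested.

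Polyadenylated RNA came from 12 libraries in 6 groups of 2, all labelled as Treg from spleen and lymph nodes. Libraries of Kdm2b conditional knockout mice (cKO) and of wild-type mice (WT) were made from Treg in vivo, from Treg stimulated in vitro and from unstimulated Treg in vitro. Kdm2b encodes a histone demethylase that is also a subunit of a non-canonical Polycomb complex. The Cre driver, the age of the mice, the sort and the stimulus are not given in the sources used here, and neither is whether replicates came from separate mice or cultures, so the p-values below cover no more than the spread between libraries, which could be technical.

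B cells recognise antigen through a membrane immunoglobulin that cannot signal alone. Its partners, the Cd79a and Cd79b chains, carry tyrosine motifs that Src family kinases phosphorylate, after which Syk, the adaptor Blnk, Btk and Plcg2 pass the signal on. Co-receptors set the strength of that signal, and transcription factors such as Ebf1 and Pax5 hold the cell in the B lineage. Mature T cells are not known for the antigen receptor chains or for these 2 lineage factors, whereas several of the kinases also act in myeloid cells.

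The promoter sequences of an antigen receptor chain, of the adaptor and of a co-receptor are shown because their genes carried the pattern of the list. The windows also hold searched motifs. Some of these are tied to the members Ebf1, Spib and Pou2af1, and the E box is not one of them. The sequences are from RefSeq on GRCm38.p6, 250 bases before to 50 bases after the annotated start, 5′ to 3′ on the strand of the gene. Of the 29 members, 25 had a promoter there, 32 promoters in all. Cd79a lies on the plus strand at chr7:24897247-24897546, Blnk on the minus strand at chr19:40994172-40994471 and Cd22 on the minus strand at chr7:30878979-30879278, the one start of this gene in the table, which lies inside the span of the gene from 30865404 to 30880342. Capitals mark the motifs found.
Cd79a: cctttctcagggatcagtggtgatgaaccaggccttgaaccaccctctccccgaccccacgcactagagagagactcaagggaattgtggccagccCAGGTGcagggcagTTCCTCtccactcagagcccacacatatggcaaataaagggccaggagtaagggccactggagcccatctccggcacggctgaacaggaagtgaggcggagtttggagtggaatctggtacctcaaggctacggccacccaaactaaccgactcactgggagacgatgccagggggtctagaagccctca
Blnk: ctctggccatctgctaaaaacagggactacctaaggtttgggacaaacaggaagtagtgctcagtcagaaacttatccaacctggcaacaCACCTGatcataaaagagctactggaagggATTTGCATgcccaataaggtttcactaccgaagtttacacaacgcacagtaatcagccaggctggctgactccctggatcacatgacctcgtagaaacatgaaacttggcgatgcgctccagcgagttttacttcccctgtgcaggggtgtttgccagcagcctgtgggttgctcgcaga
Cd22: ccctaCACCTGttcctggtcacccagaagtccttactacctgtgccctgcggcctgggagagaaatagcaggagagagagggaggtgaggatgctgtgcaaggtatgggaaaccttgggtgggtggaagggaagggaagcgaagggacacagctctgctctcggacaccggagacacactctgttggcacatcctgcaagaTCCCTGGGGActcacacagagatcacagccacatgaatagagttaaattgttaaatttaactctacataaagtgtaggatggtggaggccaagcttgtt

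The motifs were searched as written on both strands. The octamer ATTTGCAT, the site of the Oct factors with which the Pou2af1 protein works, stood at position -130 of the Blnk promoter and was also in that of Vpreb3, against 1.74% of 32851 promoters of this length. The Ebf1 palindrome, TCCC and GGGA with any 2 bases between them, stood at position -49 of that internal Cd22 window, the only one of the 32 with it, and was in 0.904% of all promoters. GAGGAA, a core read by Ets factors such as Spib, was in 9 of the 32, in Cd79a at position -140 on the opposite strand, and in 28.3% of all promoters. The E box CAGGTG was in 13 of the 32, from 11 members that include Cd79a, Blnk and Cd22, and in 20.2% of all promoters. A match is only a description of these letters.

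All libraries held Foxp3, a marker of their label. It had 114 and 117 FPKM in cKO and 107 and 106 in the in vivo WT libraries. Stimulated, it had 238 and 268 in cKO and 529 and 696 in WT, and unstimulated 71.5 and 82.6 in cKO and 194 and 189 in WT. In both cultures it was thus lower in both cKO libraries. So was the sum of 8 Treg genes, Foxp3 included, at 1900 and 1942 FPKM in cKO and 2410 and 2712 in WT stimulated. Unstimulated, that sum was 1152 and 1277 in cKO and 1408 and 1443 in WT. In vivo it overlapped, at 2058 and 2156 in cKO and 2108 and 2256 in WT. Singly, the 8 genes did not move together. Without overlap, 6 were higher and 1 lower in cKO in vivo. Stimulated, 1 was higher and 4 lower, and unstimulated 3 were higher and 2 lower. Of all genes tested, 21.5% were higher and 25.8% lower in vivo, and 18.5% were higher stimulated and 17.8% unstimulated. FPKM scale a gene's fragments to its length and to all fragments of the library, so levels of different genes can be compared per length. Kdm2b itself had 146 and 125 FPKM in the cKO and 113 and 110 in the WT libraries in vivo. Stimulated, it had 66.3 and 70.5 FPKM in cKO and 74.5 and 71.7 in WT, and unstimulated 89.8 and 97.4 in cKO and 84.9 and 94.9 in WT. It was not lower in both cKO libraries except after stimulation. Which exons the allele removes is not given here, so a level over the whole gene checks no label, and cKO and WT stand for the libraries labelled so. The read depth is unknown. The WT replicate 2 libraries in culture had 13273 genes (stimulated) and 12379 genes (unstimulated) listed at 0, against 9102 to 9857 in the other culture libraries. Haemoglobin genes made up 10.3% and 1.86% of the FPKM of the stimulated cKO libraries and 11.6% and 1.33% of the unstimulated ones, and at most 0.548% of any other library.

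Summed over the 29 members, the B cell transcripts were lower in cKO than in WT in vivo and higher in cKO than in WT in culture. In vivo the sum was 60.4 and 87.5 FPKM in the cKO libraries and 126 and 150 FPKM in the WT libraries, a ratio of means of 0.535. Stimulated cultures had 324 and 307 FPKM in cKO and 119 and 101 FPKM in WT, a ratio of 2.87. Unstimulated cultures had 385 and 376 FPKM in cKO and 94.6 and 118 FPKM in WT, a ratio of 3.58. In none of the 3 settings did the groups overlap. The sum was a small share of each library, 0.0131% and 0.0188% in cKO and 0.0273% and 0.0316% in WT in vivo, and at most 0.0925% in culture. In bulk RNA, fewer cells of a type and less RNA per cell cannot be told apart.

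The sum per 100 FPKM of 11 T cell genes kept that order. It was 2.59 and 3.41 in cKO and 4.99 and 5.78 in WT in vivo. In stimulated culture it was 25.5 and 25 in cKO and 9.66 and 8.26 in WT. In unstimulated culture it was 23.6 and 21.4 in cKO and 5.40 and 8.32 in WT. The sums of the T cell genes themselves overlapped between the genotypes in each setting, as the plot of summed FPKM shows. Between the 2 cKO libraries of each culture condition the member sums were close and the haemoglobin shares were far apart. A link between the sums and the shares was not tested.

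**Figure D1:**
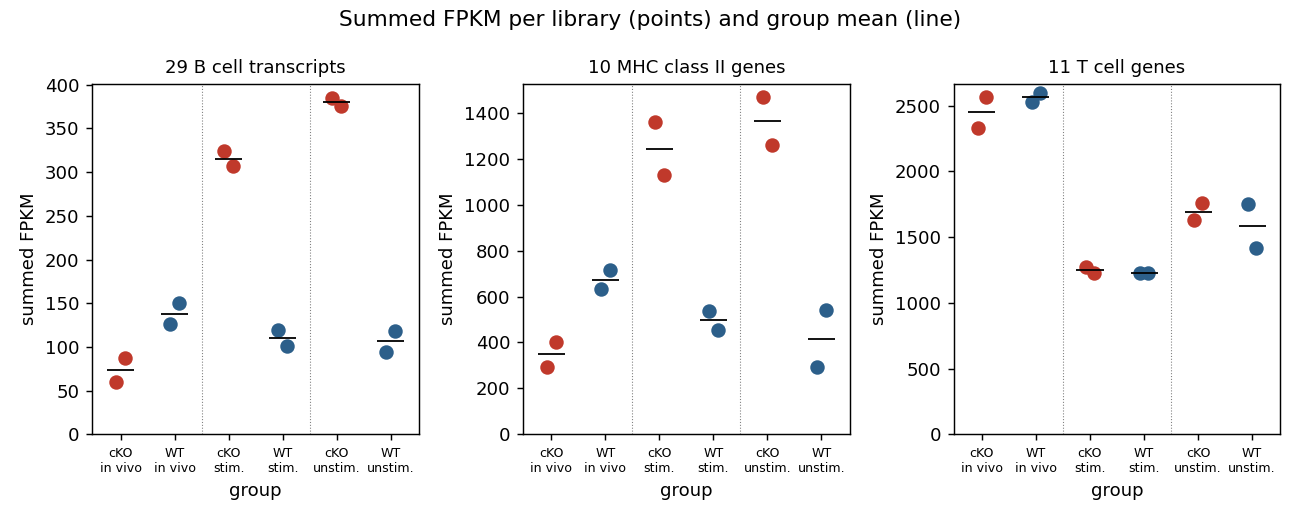
Summed FPKM (linear axes from 0) of the 29 B cell transcripts, of 10 MHC class II genes and of 11 T cell genes in each library; points are libraries, lines are means of 2 libraries, red is cKO and blue is WT. The B cell sum lies at 60.4 and 87.5 FPKM in cKO against 126 and 150 FPKM in the in vivo WT libraries, and at 307 to 385 FPKM in cKO against 94.6 to 119 FPKM in WT in culture.

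In vivo, 25 of the 29 members were lower in both cKO libraries than in both WT libraries, 1 was higher (Tnfrsf13b) and 3 overlapped (Blk, Cd72 and Ralgps2). Of all 10415 genes tested in vivo, 25.8% were lower and 21.5% higher without overlap. In stimulated culture 27 members were higher in both cKO libraries and 2 overlapped (Cd180 and Tnfrsf13b), where 18.5% of 10710 genes tested were higher without overlap. In unstimulated culture all 29 were higher in both cKO libraries, against 17.8% of genes tested. The whole pattern, lower in vivo and higher in both cultures without overlap, held for 24 of the 29 members. Among the 24 members that averaged 1 FPKM or more in both tables it held for 19. It held for 1.34% of the 9842 genes tested in both tables. The counts over 29 members include those below that mean, which the shares of all genes leave out. Since the list was chosen by this pattern, nothing is read from these shares. Tnfrsf13b, Blk, Cd72, Ralgps2 and Cd180 are the 5 that missed it. A mean of 1 FPKM, the minimum for testing, was reached by 24 members in vivo (not by Btk, Cr2, Ebf1, Vpreb3 and Bcl11a) and by 27 in culture (not by Cr2 and Bcl11a).

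The median log2 difference of cKO over WT, taken on log2(FPKM + 1), was -0.68 over the members in vivo, where the median of all genes tested was -0.02. In stimulated culture it was 1.39, beside -0.05 for all genes tested. In unstimulated culture it was 1.49, beside 0.02. The scale understates the change of low genes, and most members are low in vivo. On the deposited scale the ratio of mean FPKM in vivo ran from 0.205 for Pax5 to 1.58 for Tnfrsf13b, with a median of 0.449. Among the 24 members with no stimulated library at 0, it ran from 1.13 for Tnfrsf13b to 13.9 for Pax5. Among the 28 with no unstimulated library at 0, it ran from 1.27 for Ralgps2 to 9.90 for Cr2.

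**Figure D2:**
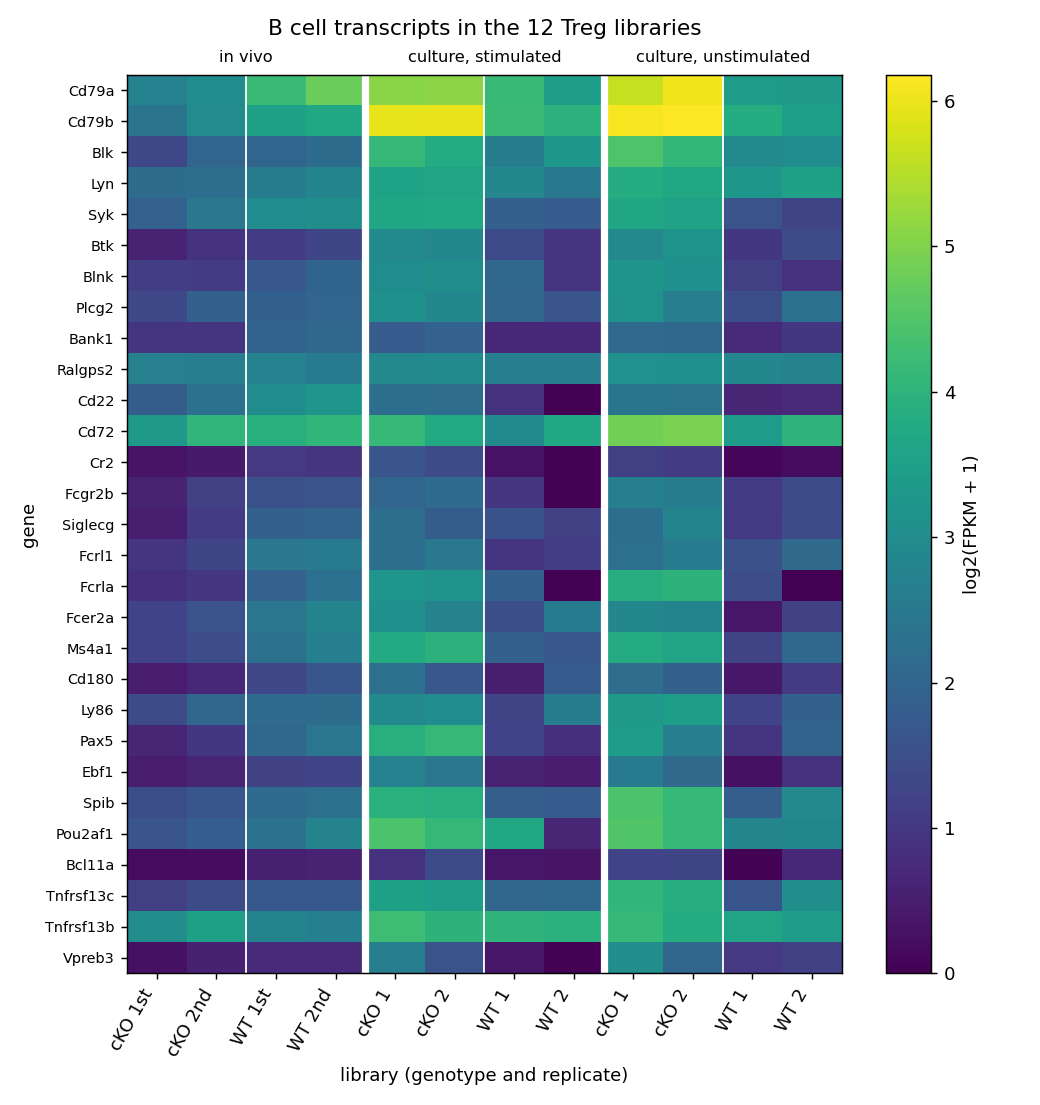
Expression of the 29 B cell transcripts (rows) in the 12 libraries (columns), coloured by log2(FPKM + 1); the 2 tables were normalized separately, so colours in vivo and in culture are not set against each other. Cd79a and Cd79b are the brightest rows in the cKO culture libraries, with 33.0 to 65.3 and 61.0 to 71.5 FPKM.

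The chains that carry the antigen receptor signal had the highest levels of the list in the cKO cultures. Cd79a had 5.52 and 6.97 FPKM in cKO and 17.6 and 26.1 FPKM in WT in vivo. It had 33.0 and 33.4 FPKM in cKO and 17.3 and 9.94 FPKM in WT in stimulated culture, and 49.1 and 65.3 FPKM in cKO and 9.45 and 8.90 FPKM in WT in unstimulated culture. Both cKO libraries lay outside the WT range each time, with log2 differences of -1.64, 1.27 and 2.50 in that order.

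Cd79b, its partner, had 4.19 and 6.86 FPKM in cKO and 10.6 and 11.8 FPKM in WT in vivo. The stimulated libraries had 61.0 and 62.3 FPKM in cKO and 17.4 and 14.6 FPKM in WT. The unstimulated libraries had 66.9 and 71.5 FPKM in cKO and 13.1 and 10.3 FPKM in WT. Again no groups overlapped, and the log2 differences were -0.93, 1.89 and 2.47. Together the pair made up 16.1% and 15.8% of the member sum in cKO and 22.3% and 25.3% in WT in vivo, so its share was lower in the cKO libraries. In unstimulated culture the share was 30.1% and 36.4% in cKO and 23.9% and 16.3% in WT.

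Among the kinases that act next, Syk, which docks on the phosphorylated chains, had 2.84 and 4.44 FPKM in cKO and 6.98 and 7.5 FPKM in WT in vivo. After stimulation it had 11.4 and 12 FPKM in cKO and 2.70 and 2.49 FPKM in WT, and without it 11.7 and 10.8 FPKM in cKO and 2.00 and 1.41 FPKM in WT. The cKO libraries thus lay at more than 4 times each WT library in both cultures. Btk, the Tec family kinase whose loss blocks B cell development, had a mean under the minimum of 1 FPKM in vivo, with 0.54 and 0.87 FPKM in cKO and 1.09 and 1.45 FPKM in WT. It had 6.73 and 6.26 FPKM in cKO and 1.63 and 0.935 FPKM in WT when stimulated. In the unstimulated libraries it had 6.49 and 7.84 FPKM in cKO and 1.01 and 1.71 FPKM in WT. No Btk groups overlapped.

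The Src family kinases differed less. Lyn, which can both start and restrain receptor signals and is also used by myeloid cells, had 3.55 and 3.69 FPKM in cKO and 5.19 and 5.91 FPKM in WT in vivo. It had 11 and 11.3 FPKM in cKO and 6.32 and 4.61 FPKM in WT when stimulated, and 13.3 and 11.9 FPKM in cKO and 8.73 and 10.6 FPKM in WT when not. The unstimulated ratio of means was 1.31. Blk, the family member restricted mostly to B cells, had 1.52 and 3.02 FPKM in cKO and 3.02 and 3.52 FPKM in WT in vivo, where the ranges met. Its culture values were 12.9 to 21.1 FPKM in the 4 cKO libraries and 5.05 to 8.85 FPKM in the 4 WT libraries.

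Blnk, the adaptor that links Syk to Btk and Plcg2, had 1.23 and 1.12 FPKM in cKO and 2.22 and 3.01 FPKM in WT in vivo. It had 7.03 and 7.45 FPKM in cKO and 3.15 and 0.903 FPKM in WT after stimulation, and 8.22 and 7.58 FPKM in cKO and 1.25 and 0.832 FPKM in WT without it. The ratio of means was 7.59 unstimulated and 3.57 stimulated, with the 2 stimulated WT libraries far apart. Plcg2, the phospholipase that releases calcium, had 1.53 and 2.74 FPKM in cKO and 2.80 and 3.05 FPKM in WT in vivo, so that the nearest libraries almost met. Its culture values were 5.27 to 7.81 FPKM in the 4 cKO libraries and 1.81 to 3.79 FPKM in the 4 WT libraries. Bank1, a scaffold for Lyn and calcium signalling, had 0.94 and 0.91 FPKM in cKO and 2.89 and 3.17 FPKM in WT in vivo. Its culture values were 2.43 to 3.35 FPKM in cKO and 0.633 to 0.999 FPKM in WT.

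Ralgps2, an exchange factor for Ral GTPases, stood apart from the signalling members. It had 5.41 and 5.30 FPKM in cKO and 5.68 and 4.85 FPKM in WT in vivo, with overlapping groups and a log2 difference of 0.02. Its culture levels were 6.49 and 6.60 FPKM in cKO and 5.22 and 5.25 FPKM in WT when stimulated, and 7.77 and 7.63 FPKM in cKO and 6.27 and 5.84 FPKM in WT when unstimulated. These groups did not overlap, but the ratios of 1.25 and 1.27 were among the smallest of the list. Over the 8 signalling members the median log2 difference was -0.46 in vivo, 1.15 stimulated and 1.27 unstimulated.

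**Figure D3:**
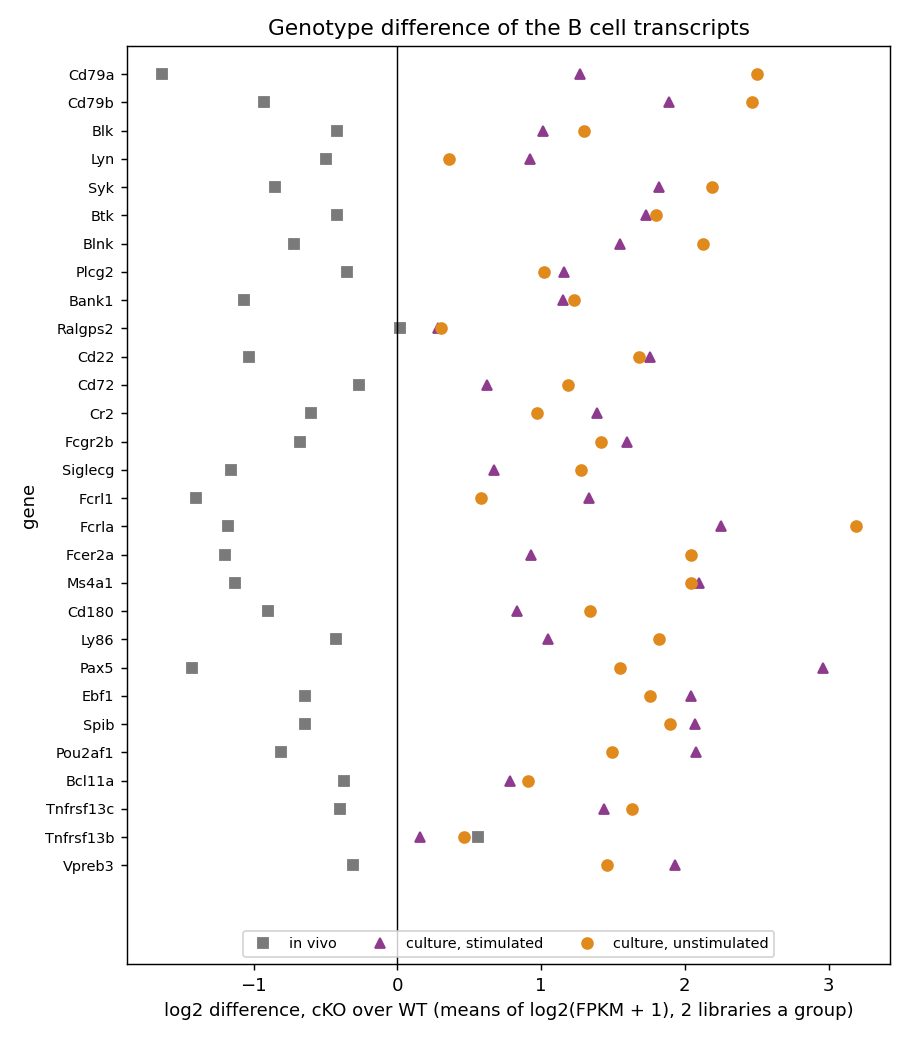
Log2 difference of cKO over WT (difference of means of log2(FPKM + 1), 2 libraries a group) for each of the 29 members in vivo (squares), in stimulated culture (triangles) and in unstimulated culture (circles). Nearly all squares lie left of 0 and all culture symbols right of it; Tnfrsf13b has 0.56 and Ralgps2 0.02 in vivo.

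The surface receptors that tune the signal were the largest group, with 11 members. Cd22, an inhibitory lectin that binds sialic acid, had 2.55 and 4.04 FPKM in cKO and 7.0 and 8.28 FPKM in WT in vivo. It had 3.71 and 3.62 FPKM in cKO after stimulation and was at 0.882 and listed at 0 in WT. Without stimulation it had 4.28 and 4.16 FPKM in cKO and 0.590 and 0.664 FPKM in WT, a ratio of 6.73. An exact 0 can be a failed estimate, so no fold is given where a library is listed at 0.

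The low-affinity IgE receptor Fcer2a, a marker of follicular B cells, had 1.38 and 1.99 FPKM in cKO and 4.40 and 5.94 FPKM in WT in vivo. In stimulated culture it had 7.52 and 5.82 FPKM in cKO and 1.78 and 4.75 FPKM in WT, and in unstimulated culture 6.24 and 5.88 FPKM in cKO and 0.292 and 1.28 FPKM in WT. The WT culture libraries were spread widely for this gene. Cr2, a complement receptor, was low everywhere and missed the minimum of 1 FPKM in both tables. Its levels were 0.25 and 0.37 FPKM in cKO and 1.05 and 0.92 FPKM in WT in vivo, and 2.09 and 1.72 FPKM in cKO against 0.224 and a listed 0 in WT when stimulated. Unstimulated, it had 1.25 and 1.14 FPKM in cKO and 0.0797 and 0.162 FPKM in WT.

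Ms4a1, the surface protein CD20, had 1.35 and 1.75 FPKM in cKO and 3.89 and 5.33 FPKM in WT in vivo. It had 12.8 and 14.6 FPKM in cKO and 2.69 and 2.18 FPKM in WT when stimulated, and 12.9 and 11.2 FPKM in cKO and 1.39 and 3.22 FPKM in WT when unstimulated. The groups were well separated in both cultures, at ratios of 5.62 and 5.23. Fcrla, an Fc receptor-like protein kept inside B cells, had 0.80 and 0.97 FPKM in cKO and 2.82 and 3.75 FPKM in WT in vivo. Stimulated, it had 8.53 and 7.88 FPKM in cKO against 2.74 and a listed 0 in WT, and unstimulated 13.4 and 15 FPKM in cKO against 1.77 and a listed 0 in WT. Both values listed at 0 belong to WT replicate 2. Fcrl1, a related receptor on the cell surface, had 0.93 and 1.44 FPKM in cKO and 4.52 and 4.94 FPKM in WT in vivo, a ratio of 0.251 that only Pax5 undercut among the members. In culture it ran from 3.71 to 4.85 FPKM in cKO and from 0.913 to 3.43 FPKM in WT.

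The inhibitory receptors Siglecg and Fcgr2b had in vivo ratios of 0.266 and 0.449. Siglecg, a lectin that restrains B cell calcium signals, had 3.74 and 2.54 FPKM in cKO and 1.95 and 1.24 FPKM in WT when stimulated, and 3.68 and 5.87 FPKM in cKO and 1.06 and 1.65 FPKM in WT when not. Fcgr2b, the inhibitory IgG receptor, which myeloid cells also carry, had 3.06 and 3.47 FPKM in cKO against 0.975 and a listed 0 in WT when stimulated, and 5.39 and 5.09 FPKM in cKO and 1.08 and 1.60 FPKM in WT when not. Neither gene's groups overlapped. Cd180 and its secreted partner Ly86, a pair that modulates Toll-like receptor signals, had in vivo ratios of 0.276 and 0.690. In stimulated culture Cd180 had 3.81 and 2.2 FPKM in cKO and 0.422 and 2.43 FPKM in WT, so its groups overlapped. Ly86 had 6.80 and 7.06 FPKM in cKO and 1.39 and 5.15 FPKM in WT there. Unstimulated, both genes were higher in cKO without overlap, at ratios of 4.61 each. For both genes WT replicate 2 was the higher of the WT libraries.

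Cd72, an inhibitory coreceptor of the lectin type, was the surface member with the highest level in vivo, 9.0 and 15.9 FPKM in cKO and 13.6 and 15.8 FPKM in WT, with overlapping groups. It had 16.7 and 12.4 FPKM in cKO and 6.78 and 12 FPKM in WT when stimulated, and 28.0 and 29.6 FPKM in cKO and 9.41 and 15.3 FPKM in WT when unstimulated. Its ratios of 1.55 and 2.33 in culture were on the low side of the list. Over the 11 receptors the median log2 difference was -1.03 in vivo, 1.33 stimulated and 1.42 unstimulated.

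The transcriptional regulators included the widest contrast of the list. Pax5, which commits progenitors to the B lineage and keeps B cells in it, had 0.58 and 0.99 FPKM in cKO and 3.25 and 4.39 FPKM in WT in vivo, the smallest ratio of all members at 0.205. It had 13.8 and 16.2 FPKM in cKO and 1.38 and 0.772 FPKM in WT when stimulated. Unstimulated, it had 9.41 and 5.27 FPKM in cKO and 0.950 and 2.92 FPKM in WT. The stimulated ratio was 13.9 and the unstimulated 3.79, with the unstimulated libraries of both genotypes spread more widely.

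Ebf1, which opens B cell genes ahead of Pax5, had 0.42 and 0.57 FPKM in cKO and 1.29 and 1.36 FPKM in WT in vivo, below the minimum of 1 FPKM on average. It had 5.61 and 4.47 FPKM in cKO and 0.543 and 0.388 FPKM in WT when stimulated, and 4.90 and 3.37 FPKM in cKO and 0.217 and 0.857 FPKM in WT when unstimulated. All WT culture libraries were under 1 FPKM. Spib, an Ets factor of B cells and plasmacytoid dendritic cells, had 1.80 and 2.17 FPKM in cKO and 3.47 and 3.84 FPKM in WT in vivo. It had 14.3 and 13.6 FPKM in cKO and 2.67 and 2.45 FPKM in WT when stimulated. The unstimulated values were 20.7 and 16.7 FPKM in cKO and 2.68 and 6.47 FPKM in WT, again without overlap.

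Pou2af1, the octamer coactivator, had 2.1 and 2.61 FPKM in cKO and 4.01 and 5.85 FPKM in WT in vivo. It had 20.5 and 16.4 FPKM in cKO and 12.1 and 0.589 FPKM in WT when stimulated, and 21.8 and 16.4 FPKM in cKO and 6.05 and 6.10 FPKM in WT when unstimulated. The stimulated WT libraries lay far apart, replicate 2 being the low one. Bcl11a, a zinc finger factor needed for early B cells, was at most 0.51 FPKM in any library in vivo. In culture it had 0.84 and 1.60 FPKM in cKO and 0.304 and 0.245 FPKM in WT when stimulated, and 1.37 and 1.45 FPKM in cKO and 0.018 and 0.626 FPKM in WT when unstimulated. The 5 regulators had median log2 differences of -0.64 in vivo, 2.07 stimulated and 1.55 unstimulated.

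The receptors for the survival factor BAFF parted from each other in vivo. Tnfrsf13c, the BAFF receptor on which mature B cells depend, had 1.27 and 1.65 FPKM in cKO and 2.24 and 2.23 FPKM in WT in vivo. It had 10.5 and 10.1 FPKM in cKO and 3.08 and 3.22 FPKM in WT when stimulated, and 15.7 and 13.5 FPKM in cKO and 2.02 and 7.43 FPKM in WT when unstimulated. Tnfrsf13b, the receptor TACI that binds BAFF and APRIL, was the one member higher in both cKO libraries in vivo, with 7.29 and 10.4 FPKM in cKO and 5.87 and 5.36 FPKM in WT. It had 18.3 and 15 FPKM in cKO and 15.2 and 14.4 FPKM in WT when stimulated, where the groups overlapped. Unstimulated, it had 16.5 and 13.3 FPKM in cKO and 11.3 and 9.74 FPKM in WT, so it ran higher in cKO in all 3 settings on average. Vpreb3, a relative of the surrogate light chain that acts in receptor assembly, was below the minimum in vivo, with 0.22 and 0.48 FPKM in cKO and 0.67 and 0.66 FPKM in WT. It had 5.22 and 2.04 FPKM in cKO against 0.295 and a listed 0 in WT when stimulated, and 7.35 and 3.09 FPKM in cKO and 1.02 and 1.25 FPKM in WT when unstimulated.

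Between the libraries of 1 group the members shifted together in some groups and not in others. In vivo, 26 of the 29 were higher in the second than in the first cKO library, with a median log2 difference of 0.28, where the median of all genes tested was 0.02. In WT in vivo 24 were higher in the second library, with a median of 0.11 beside 0.01. Unstimulated WT replicate 2 exceeded replicate 1 in 22 members, with a median of 0.32 beside -0.12 for all genes. Stimulated WT went the other way, with 20 members lower in replicate 2 and a median of -0.21 beside -0.05. In unstimulated cKO 20 were lower in replicate 2, at a median of -0.07 that is close to the -0.05 of all genes. In stimulated cKO 16 were lower, at -0.04 beside -0.01. The in vivo columns carry no replicate number, so first and second there only follow the table.

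The members ranked lower among the genes of their library in cKO than in WT in vivo, and higher in cKO than in WT in each culture condition. Their median percentile among the genes of a library was 39.4 and 40.3 in cKO and 47.5 and 49.3 in WT in vivo. It was 73.1 and 72.9 in cKO and 63.0 and 62.6 in WT when stimulated, and 72.7 and 72.4 in cKO and 58.7 and 63.9 in WT when unstimulated. The culture table lists more genes at 0, so percentiles are not compared between tables.

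Stimulation was not used to choose the members. Of the 27 members that averaged 1 FPKM or more in culture, 0 were called with limma in cKO at a Benjamini-Hochberg adjusted p under 0.05, where 4.58% of 10710 genes were called. In WT 0 of 27 were called, where 2.43% of genes were. The minimum was a mean over all 8 culture libraries, so a member could pass through its cKO values alone. Bank1, Cd22 and Ebf1 were under 1 FPKM in every WT culture library, so the WT count says little of them. For the interaction, the difference between the genotypes' stimulation effects, 0 were called among the members and 0.0% among all genes. The interaction is also the stimulated genotype difference less the unstimulated one. Genotype differences in culture entered the choice of the list, so the interaction is not wholly separate from that choice. At an unadjusted limma p under 0.05 there were 3 of the 27 members in cKO, 5 in WT and 3 in the interaction. Of all 10710 genes tested, 2296 in cKO, 2002 in WT and 380 in the interaction were under it. The median log2 change of the 29 members, stimulated over unstimulated, was -0.16 in cKO and -0.04 in WT, beside -0.14 and -0.04 over all genes tested.

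In cKO the smallest p-values were those of Cd72, Cd79a and Pax5. Cd72 had 16.7 and 12.4 FPKM stimulated and 28.0 and 29.6 FPKM unstimulated, a log2 change of -0.95 (SE 0.308, limma adjusted p = 0.124). Cd79a had 33.0 and 33.4 FPKM stimulated and 49.1 and 65.3 FPKM unstimulated, a log2 change of -0.75 (SE 0.255, limma adjusted p = 0.138). Pax5 had 13.8 and 16.2 FPKM stimulated and 9.41 and 5.27 FPKM unstimulated, a log2 change of 0.98 (SE 0.398, limma adjusted p = 0.206). The groups did not overlap for any of the 3 genes. A fit on only the 4 cKO libraries called Cd79a (limma adjusted p = 0.0282), Cd72 (0.0187), Pax5 (0.048) and Fcrla, whose log2 change was -0.72 (0.0248). Leaving out both WT replicate 2 libraries from the fit called Cd79a (0.0296), Cd72 (0.0195) and Fcrla (0.0318), but not Pax5. Among the members, a replicate block within each genotype called Cd72 alone (limma adjusted p = 0.0346). That fit called 839 of all 10710 genes tested in cKO. The number of all genes called in the fits named before it is not given here, so nothing is read from their counts.

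In WT the smallest were those of Lyn, Fcer2a, Fcrl1, Cd79b and Tnfrsf13b. Lyn had 6.32 and 4.61 FPKM stimulated and 8.73 and 10.6 FPKM unstimulated, a log2 change of -0.73 (SE 0.21, limma adjusted p = 0.124). Fcer2a had 1.78 and 4.75 FPKM stimulated and 0.292 and 1.28 FPKM unstimulated, a log2 change of 1.22 (SE 0.413, limma adjusted p = 0.172). Fcrl1 had 0.913 and 1.17 FPKM stimulated and 1.89 and 3.43 FPKM unstimulated, a log2 change of -0.81 (limma adjusted p = 0.204). None of these groups overlapped, and in Cd79b and Tnfrsf13b both stimulated libraries were likewise the higher ones, at 0.42 and 0.45 (limma adjusted p = 0.229 and 0.256). Without the stimulated WT replicate 1 library, Lyn (-0.92, limma adjusted p = 0.0496), Fcer2a (1.75, 0.0396) and Pou2af1 (-2.15, 0.00886) were called, the lone remaining library being taken to vary like the other groups.

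The smallest p of an interaction among the members was that of Cd79a, with a difference between the stimulation effects of cKO and WT of -1.23 on the log2 scale (unadjusted p = 0.00941, limma adjusted p = 0.999). Pax5 had 1.41 (unadjusted p = 0.037, limma adjusted p = 0.999) and Cd79b -0.59 (unadjusted p = 0.0386, limma adjusted p = 0.999). None passed. Other scalings of the libraries moved the median change of all genes in cKO by 0.11 to 0.13 and in WT by up to 0.1. They turned the sign of small changes in Blnk, Btk, Cd180, Cd22, Fcrl1 and Pou2af1 in cKO, in Bcl11a, Blk, Btk, Ebf1 and Plcg2 in WT and of the interaction in Bank1, Btk and Ralgps2. No genotype difference of a member turned sign under these scalings.

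**Figure D4:**
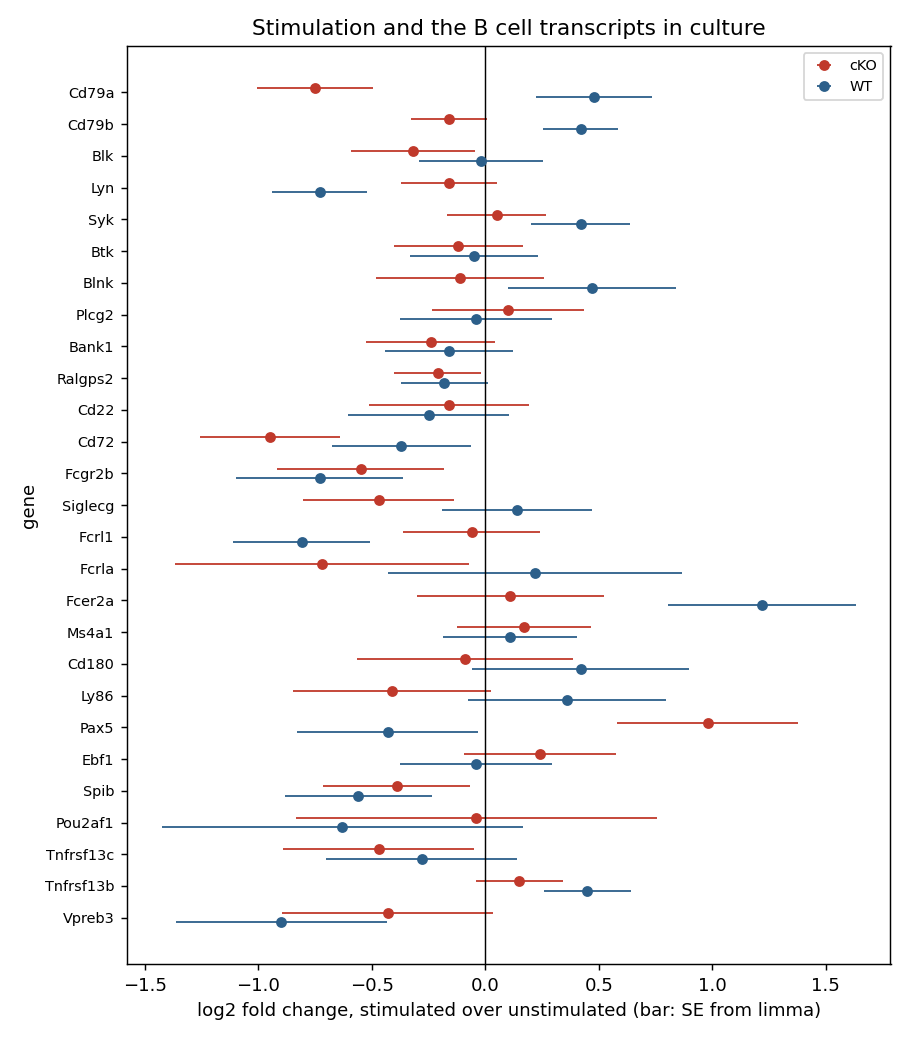
Log2 fold change of stimulated over unstimulated culture for the 27 tested members in cKO (red) and WT (blue); bars are 1 SE from limma, with 2 libraries a group. The points lie on both sides of 0, from -0.95 (Cd72) to 0.98 (Pax5) in cKO and up to 1.22 (Fcer2a) in WT, and none passed the adjusted threshold.

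Other genes of the same pathway were followed on a list of 22 further antigen receptor signalling genes. Their median log2 difference of cKO over WT was -0.19 in vivo, 0.12 stimulated and 0.20 unstimulated, nearer to the medians of all genes than to those of the members. In vivo 7 of the 22 were lower and 2 higher without overlap in cKO, where 25.8% and 21.5% of all genes tested were. Stimulated, 10 were higher and 5 lower, and unstimulated 12 were higher and 2 lower, beside 18.5% and 17.8% of all genes higher. The phosphatase Inpp5d, which T cells also use, overlapped between the genotypes in vivo, with 82.0 and 67.9 FPKM in cKO and 75.2 and 73.7 FPKM in WT. With stimulation only the adaptor Grb2 of the 22 was called, in cKO, where it fell to 59.7 and 55.7 FPKM in stimulated libraries, against 87.5 and 94.3 FPKM in unstimulated ones (log2 change -0.65, limma adjusted p = 0.0417).

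Of 24 other genes listed as broadly expressed in B cells, 19 were measured in both tables. Their median genotype difference was -0.29 in vivo, 0.47 stimulated and 0.41 unstimulated. Without overlap, 9 of the 19 were lower and 3 higher in cKO in vivo, where 25.8% and 21.5% of all genes tested were. In each culture condition 12 were higher and 1 lower, beside 18.5% of all genes higher stimulated and 17.8% unstimulated. With stimulation, Cd200, a surface glycoprotein that T cells also carry, was the one of the 19 called. It rose to 45.9 and 50.5 FPKM in stimulated cKO libraries, against 19.3 and 16.8 FPKM unstimulated (log2 change 1.37, limma adjusted p = 0.00584). In WT it rose to 47.6 and 41.0 FPKM stimulated, against 13.8 and 12.9 FPKM unstimulated (log2 change 1.66, limma adjusted p = 0.00322).

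Markers of other cells moved with the B cell transcripts to different degrees. The 10 MHC class II genes are used by B cells, dendritic cells and macrophages to present antigen. Without overlap, 10 of 10 were lower in cKO in vivo, 8 of 10 higher stimulated and 10 of 10 higher unstimulated. Of all genes tested, 25.8% were lower in vivo, 18.5% were higher stimulated and 17.8% were higher unstimulated. The MHC class II sum was 293 and 403 FPKM in cKO and 631 and 716 FPKM in WT in vivo. It was 1359 and 1127 FPKM in cKO and 538 and 454 FPKM in WT when stimulated, and 1468 and 1261 FPKM in cKO and 292 and 541 FPKM in WT when unstimulated. This list thus had the same order of groups as the members.

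Singly, the 16 myeloid markers overlapped more often than the MHC class II genes. Their summed level overlapped in vivo, and in each culture both cKO libraries lay above both WT libraries. Their sum was 154 and 205 FPKM in cKO and 202 and 220 FPKM in WT in vivo. When stimulated it was 364 and 173 FPKM in cKO and 162 and 157 FPKM in WT, and when unstimulated 498 and 218 FPKM in cKO and 168 and 207 FPKM in WT. Without overlap, 7 of the 16 were lower in cKO in vivo, 7 were higher and 1 lower stimulated, and 11 were higher and 1 lower unstimulated. Of all genes tested, 25.8% were lower in vivo, 18.5% were higher stimulated and 17.8% were higher unstimulated. From 0 to 6 of the 16 were listed at 0 in a library, the most in stimulated WT replicate 2. In both culture conditions the myeloid sum of cKO replicate 1 was more than 2 times that of replicate 2. The member sums of these libraries were 324 and 307 FPKM stimulated and 385 and 376 FPKM unstimulated. A link between the sums was not tested.

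The 11 erythroid markers measured were summed at 10.7 and 24.7 FPKM in cKO and 16.7 and 13.9 FPKM in WT in vivo. In culture they reached 41800 and 6935 FPKM in cKO and 316 and 1699 FPKM in WT when stimulated, and 51224 and 5114 FPKM in cKO and 19.9 and 656 FPKM in WT when unstimulated. From 0 to 6 of them were listed at 0 in a library. The part of these cell types in the member values was not tested.

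The genes with a profile most like the members were found by the root mean square distance, over the 12 libraries, from the mean profile of the 24 members that passed in both tables, on log2(FPKM + 1) centred within each table. Among 7133 genes compared, whose median distance was 0.708, the nearest was Cd74, the invariant chain of MHC class II, at 0.174. It had 150 and 204 FPKM in cKO and 325 and 379 FPKM in WT in vivo, 831 and 682 FPKM in cKO and 338 and 302 FPKM in WT stimulated, and 840 and 721 FPKM in cKO and 197 and 358 FPKM in WT unstimulated. H2-Ab1 followed at 0.199 and Unc93b1, which escorts Toll-like receptors to endosomes, at 0.238. The next were Dtx1 (0.305), H2-Aa (0.307), Cybb (0.31), Pik3ap1 (0.317), H2-Ob (0.329), Hvcn1 (0.343) and Entpd4 (0.345). All 10 were higher without overlap in cKO in both cultures, and in vivo Dtx1, Pik3ap1 and Entpd4 overlapped while the other 7 were lower in cKO. Of all genes tested, 18.5% were higher stimulated, 17.8% higher unstimulated and 25.8% lower in vivo. These 10 were picked for likeness to members that were chosen by this pattern, so nothing is read from their counts.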

How the data were processed

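Treg RNA of 6 groups of 2 samples, grouped by sample title, was analysed from 2 tables that the authors deposited as FPKM, 1 in vivo and 1 in vitro, each normalized separately and tested alone. Per the submitters' processing notes, the tools were HISAT2 2.2.1 and StringTie 2.1.1; the annotation, filters and the build used are not given in the sources used here. In the tables, 4 columns of no sample in the series were not used. Entrez numbers in vivo were matched to RefSeq symbols for 16196 of 16232 genes. Read depth is unknown, so no counting interval was computed.

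Two-sided tests used limma 3.58.1 (R 4.3.3, trended eBayes) on log2(FPKM + 1) for the genes averaging 1 FPKM or more (10415 in vivo, 10710 in vitro), in 1 model of the 8 in vitro samples, with Benjamini-Hochberg adjustment over all genes. The limma step was tested on simulated data. The members and all lists were chosen with earlier results of these data known. All members are reported. Outside them, the rule names the genes of a list called with stimulation, the 3 of highest mean FPKM, the 10 of most similar profile (averaging 5 FPKM or more in each table) and Treg markers, of which the text gives part. Alternatives covered the pseudocount, filters, scalings, moderation, samples in the fit, the replicate block and leaving out libraries.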

Additional observations from a re-analysis of the deposited data

Results flagged for a closer look

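The summed B cell transcripts of both cKO libraries lay below both WT libraries in vivo and above both in each culture condition. This order held for 24 of the 29 members singly. Among the 24 members that averaged 1 FPKM or more in both tables it held for 19. The share was 1.34% over the 9842 genes tested in both. The log2 ratio of the mean member sum, cKO over WT, was -0.9 in vivo, 1.52 stimulated and 1.84 unstimulated. The members were chosen for this contrast, the tables were normalized separately, and the difference was not tested.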

How the results depend on the processing

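With groups of 2, unknown depth and low levels in vivo, only large differences can pass. The direction of the median genotype difference and of the log2 ratio of the member sum held under every alternative that was run. The median stimulation change of the members did not keep its sign in WT. There (-0.04) it was 0.01 with quantile normalization, 0.04 without stimulated WT replicate 2, 0.16 without unstimulated WT replicate 2 and 0.3 without both, and the interaction median (-0.09) was 0.12 without unstimulated WT replicate 1. A pseudocount of 0.1 moved the median genotype difference of the members (cKO over WT, log2) to -1.08 in vivo, 1.89 stimulated and 2.13 unstimulated. Without the 11 members that T or myeloid cells are also known to express, an alternative added after seeing the data, it was -0.98, 1.66 and 1.65. Leaving out 1 library gave -0.76 to -0.57 in vivo, 1.31 to 1.54 stimulated and 1.28 to 1.69 unstimulated, and log2 ratios of the member sum of -1.19 to -0.66, 1.41 to 1.64 and 1.69 to 2.01. Without both WT replicate 2 libraries in culture, added after seeing the data, the unstimulated median was 1.65, the log2 ratio of the sum 2.01, and 3 members were called with stimulation in cKO. A fit on only the 4 samples compared called 4 there. Leaving out 1 library called 0 to 3 members with stimulation in WT. The number of all genes called in these fits is not given here, so the counts have no share beside them. The causes were not tested. The sum without Ighm and Ighd was not run, since neither was analysed here. With the replicate number as 1 block over both genotypes, 0 members were called in cKO, in WT and in the interaction. Same-numbered libraries deviated together within a genotype (r = 0.42 in cKO, 0.239 in WT, over genes) and not between unstimulated genotypes (-0.138). With 2 pairs a genotype this is a hint from the data, and the labels do not say that the numbers pair the samples. A replicate block within each genotype, added after seeing the data, called 1 member in cKO (Cd72), 0 in WT, where the smallest limma adjusted p was 0.0505, and 0 in the interaction. Over all genes tested it called 839 in cKO, 468 in WT and 0 in the interaction.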

Other observations

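Transcripts tied to later B cell stages did not share one pattern. Of 12 plasma cell genes, 6 were lower and 0 higher without overlap in cKO in vivo, where 25.8% and 21.5% of all genes tested were. Stimulated, 1 was higher and 2 lower, and unstimulated 1 was higher and 1 lower. Jchain, which joins secreted antibodies, had 25.3 and 50.5 FPKM in cKO and 33.3 and 113 FPKM in WT in vivo. It had 61.6 and 23.1 FPKM in cKO and 243 and 10.2 FPKM in WT when stimulated, and 75.6 and 26.7 FPKM in cKO and 49.7 and 12.9 FPKM in WT when unstimulated. In each setting the 2 WT libraries were farther apart than the means of the genotypes. Irf4, a factor of activated T cells and plasma cells, rose with stimulation in cKO, to 125 and 121 FPKM stimulated against 33.5 and 38.2 FPKM unstimulated (log2 change 1.75, limma adjusted p = 0.00995). In WT it rose to 108 and 104 FPKM stimulated, against 23.7 and 40.7 FPKM unstimulated (log2 change 1.74, limma adjusted p = 0.0109).

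Of 10 germinal centre genes, Bcl6, which germinal centre B cells and follicular T cells use, was the one called with stimulation. It fell to 5.44 and 5.55 FPKM in stimulated cKO libraries, against 33.0 and 38.8 FPKM unstimulated (log2 change -2.50, limma adjusted p = 0.00206). In WT it fell to 4.57 and 5.85 FPKM stimulated, against 40.5 and 35.3 FPKM unstimulated (log2 change -2.65, limma adjusted p = 0.000978). Of 10 marginal zone and B1 genes, Cd9 was called in cKO, where it fell to 19.4 and 13.2 FPKM stimulated, against 39.7 and 49.7 FPKM unstimulated (log2 change -1.41, limma adjusted p = 0.0389).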
